A study of Homo sapiens with 9 samples.

Results

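The enzymes that make and balance the deoxynucleotides for DNA synthesis were followed in HeyA8 cells, an established human ovarian cancer line also spelled Hey8A in the labels. The set was a fixed list of 9 genes: RRM1, RRM2, RRM2B, TYMS, TK1, DTYMK, DUT, DCK and SAMHD1. A named probe was found for 7 of the 9, and all 7 were among the 10862 genes tested of 18354 with a named probe; DTYMK and SAMHD1 were not analysed here. The study had 3 conditions with 3 arrays each, all labelled as HeyA8 RNA. Coculture without glutamine held HeyA8 cells in wells together with cancer-associated fibroblasts (CAFs) grown on inserts, added on day 1 after seeding on day 0, and kept without glutamine for the last 24 h. Deprived monoculture held HeyA8 cells alone under the same 24 h without glutamine, and complete medium held HeyA8 cells alone with glutamine. A coculture with glutamine was not analysed here, so what fibroblasts do to fed cells could not be measured. Nothing in the labels tells whether replicate arrays came from separate experiments, and p-values therefore cover the spread between these arrays alone, possibly a technical one.

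Ribonucleotide reductase converts ribonucleotides to deoxyribonucleotides. Its large subunit, RRM1, holds the active site, and its small subunit, which holds the radical needed for catalysis, is either RRM2, made mainly in dividing cells, or RRM2B, a target of p53 that also serves cells that are not dividing. Thymidylate is made from dUMP by thymidylate synthase (TYMS) or from thymidine by thymidine kinase 1 (TK1), and DUT makes dUMP by splitting dUTP, which keeps uracil out of DNA. DCK phosphorylates deoxycytidine and purine deoxynucleosides. In the synthesis of purines and of CTP, glutamine donates nitrogen, so ribonucleotide reductase lies downstream of steps that use it. TK1 and DCK start from ready-made deoxynucleosides instead.

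Promoter stretches are shown for the 4 members with the largest falls without glutamine, RRM1, RRM2, TYMS and TK1, and for DUT, whose probes went apart. They are the 150 bases before an annotated start site, from RefSeq on GRCh38.p14, written 5′ to 3′ along the gene. Capitals mark the searched motifs on either strand: CCAAT, whose reverse reads ATTGG, the cell cycle motif CHR, searched as TTTGAA and also, as a less common form, as TTCGAA, and the E2F-like letters TTTCCCGC, TTTCGCGC, TTTGCCGC or TTTGGCGC. No marked motif overlaps another in these stretches.
RRM1, chr11:4094535-4094684, plus strand: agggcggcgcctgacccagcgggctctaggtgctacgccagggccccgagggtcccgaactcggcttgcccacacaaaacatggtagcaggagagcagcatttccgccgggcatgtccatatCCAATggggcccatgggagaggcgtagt
RRM2, chr2:10122589-10122738, plus strand: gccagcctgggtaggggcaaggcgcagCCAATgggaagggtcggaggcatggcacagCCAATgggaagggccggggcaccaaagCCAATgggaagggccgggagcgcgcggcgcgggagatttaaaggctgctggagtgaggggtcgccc
TYMS, chr18:657503-657652, plus strand: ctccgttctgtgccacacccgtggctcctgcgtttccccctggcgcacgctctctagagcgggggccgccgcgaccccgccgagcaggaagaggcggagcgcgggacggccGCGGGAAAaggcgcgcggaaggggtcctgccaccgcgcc
DUT, chr15:48332047-48332196, plus strand: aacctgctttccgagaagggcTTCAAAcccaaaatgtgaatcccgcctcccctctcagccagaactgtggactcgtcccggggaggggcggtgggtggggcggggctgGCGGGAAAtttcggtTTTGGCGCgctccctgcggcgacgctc
TK1, chr17:78187053-78187202, minus strand: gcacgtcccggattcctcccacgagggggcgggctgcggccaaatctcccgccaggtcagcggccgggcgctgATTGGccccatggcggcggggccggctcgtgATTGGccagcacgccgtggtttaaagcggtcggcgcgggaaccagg
The RRM2 stretch holds 3 CCAAT boxes, the TK1 stretch 2 and the RRM1 stretch 1. RRM2 and TK1 each had another annotated start site, and the 150 bases before it held none of the searched motifs. The DUT stretch holds 2 E2F-like matches, 42 and 27 bases before the start site, and 1 CHR match. In TYMS an E2F-like match begins 39 bases before the start site. The promoter table held 13 windows of 300 bases for 8 of the 9 genes, all but RRM2B. E2F-like letters stood in 3 of these 13 windows (DCK, DUT and TYMS), against 3.31% of all 35116 windows. CHR letters stood in 3 of 13 (DTYMK, DUT and RRM1), against 16.4%, and CCAAT boxes in 6 of 13, against 34.6%. Of the 4 DUT windows, only the one whose stretch is printed held E2F-like or CHR letters. A match describes letters and was not tested as a binding site.

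Levels are the deposited values on a log2-like scale, relative to the other probes of an array, with a floor whose upper edge lay at 7.48. A level near this floor makes a fold too small. Levels of different probes cannot be compared with each other. Arrays of a group correlated across probes at r from 0.996 to 0.998. The cells carried epithelial transcripts: of 10 epithelial and ovarian markers, 7 stood above the floor on every coculture array, 6 on every deprived monoculture array and 8 on every complete medium array. CDH1 and MUC16 did not pass the filter on dim probes. Of 11 fibroblast markers, 2 stood above the floor on every coculture array, 1 on every deprived monoculture array and 2 on every complete medium array. The collagens and decorin lay at or near the floor, with COL1A1 at 7.56 ± 0.13 in coculture, 7.48 ± 0.07 in deprived monoculture and 7.49 ± 0.06 in complete medium (SD, n = 3), and COL1A2 at 7.46 ± 0.11, 7.45 ± 0.03 and 7.44 ± 0.04 in the same order. COL3A1 and DCN had means between 7.39 and 7.46. The mean level of the list ranged over arrays from 7.76 to 7.79 in coculture, from 7.79 to 7.82 in deprived monoculture and from 7.71 to 7.72 in complete medium. ACTA2, by far the brightest of the list, raises this mean. It stood at 11.13 ± 0.05 in coculture, 11.73 ± 0.09 in deprived monoculture and 10.19 ± 0.03 in complete medium (SD, n = 3). Of the leukocyte markers with a probe, 5 of 6, CD68 stood above the floor in every group and PTPRC did not. CD68 rose without glutamine by 0.98 on the log2 scale (adjusted p = 6.04e-10, limma). All 8 epithelial markers tested were called lower without glutamine, where 24.3% of all genes tested were. Of these, KRT19, EPCAM and WT1 lay at or near the floor, with monoculture means from 7.37 to 7.80, and fell by 0.13 to 0.34. The others fell by 0.61 to 1.45. Of the 3 fibroblast markers tested ACTA2 rose without glutamine by 1.54 (adjusted p = 3.99e-14) and FAP fell by 0.41 (adjusted p = 1.52e-06). In coculture ACTA2 was lower than in deprived monoculture (log2 difference -0.60; adjusted p = 5.04e-07), FAP was higher (0.24; adjusted p = 0.00185) and COL1A1 was not called in either comparison. The part of these marker differences in the members' results was not tested.

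**Figure D1:**
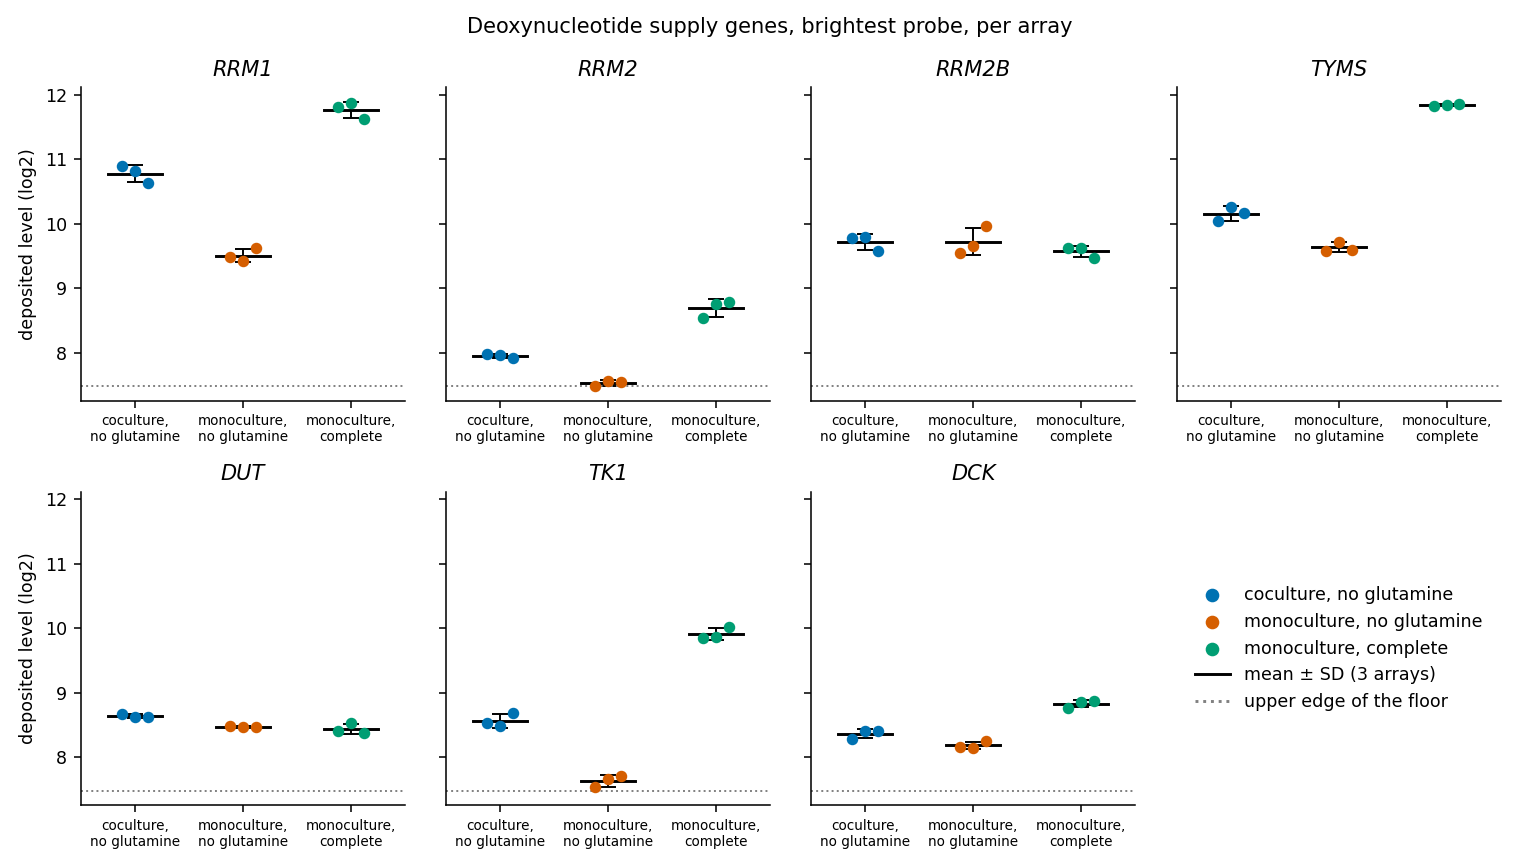
Level of each deoxynucleotide supply gene on every array (deposited log2 scale, brightest probe); points are arrays, bars the mean ± SD of 3 arrays, and the dotted line the upper edge of the floor at 7.48. RRM1, RRM2, TYMS, TK1 and DCK are lowest in deprived monoculture, intermediate in coculture and highest in complete medium. RRM2B, from 9.47 to 9.96 over all arrays, and this DUT probe, from 8.38 to 8.67, do not follow this order. Heights of different genes are not comparable.

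Monocultures without and with glutamine were compared to ask what 24 h of deprivation changed. RRM1, TK1 and TYMS fell most, by more than 4-fold each, RRM2 fell 2.25-fold and DCK 1.57-fold. RRM2B and the brighter DUT probe were not called. Of the 7 members tested 5 were lower (adjusted p from 3.44e-16 to 1.66e-08, limma), where 54.3% of all genes tested were called, 24.3% lower and 30% higher. The same 5 had groups that did not overlap, against 26.2% of all genes for lower. The median log2 difference of the 7 was -1.17, and that of all genes tested was 0.02. By size of change TK1 ranked 66th, RRM1 67th and TYMS 77th among the 10862 genes. RRM2 ranked 337th and DCK 1173rd.

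The transcripts of both parts of the S-phase ribonucleotide reductase were lower. RRM1 stood at 9.48, 9.42 and 9.62 on the deprived monoculture arrays, against 11.81, 11.87 and 11.63 in complete medium. All deprived arrays lay below all fed arrays, with a log2 difference of -2.26 (SE 0.079; 4.80-fold lower; adjusted p = 2.57e-15). RRM2 stood at 7.48, 7.55 and 7.55 on the deprived arrays, against 8.54, 8.76 and 8.78 in complete medium. The deprived arrays lay at the floor's edge, so the 2.25-fold difference (log2 -1.17, SE 0.062; adjusted p = 2.28e-12) is the part of the change that the array could show. The p53-inducible subunit RRM2B stood at 9.55, 9.65 and 9.96 on the deprived arrays, against 9.62, 9.62 and 9.47 in complete medium. These groups overlapped, and the log2 difference of 0.15 was not called (95% interval -0.035 to 0.339; adjusted p = 0.164).

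The transcripts for both routes to thymidylate were lower too. TYMS, the enzyme of the route from dUMP, stood at 9.58, 9.72 and 9.59 without glutamine, against 11.83, 11.85 and 11.86 in complete medium. The fed arrays lay close together, and the groups did not overlap, with a log2 difference of -2.21 (SE 0.068; 4.63-fold lower; adjusted p = 3.44e-16). TK1, the enzyme of the route from thymidine, stood at 7.53, 7.67 and 7.71 without glutamine, against 9.84, 9.87 and 10.02 in complete medium. Its deprived arrays were close to the floor, and the difference was -2.28 (SE 0.071; 4.84-fold lower; adjusted p = 3.79e-16). DUT, by its brighter probe, stood at 8.49, 8.48 and 8.46 without glutamine, against 8.40, 8.53 and 8.38 in complete medium. The groups overlapped, with a log2 difference of 0.04 (95% interval -0.085 to 0.160; adjusted p = 0.621).

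DCK, the kinase of deoxycytidine salvage, fell too. It stood at 8.16, 8.14 and 8.25 on the deprived arrays, against 8.77, 8.86 and 8.87 in complete medium. No deprived array reached a fed one, and the log2 difference was -0.65 (SE 0.061; adjusted p = 1.66e-08). Within an array, the distance between TK1 and DCK changed by -1.63 on the log2 scale between deprived and fed arrays, with no overlap (exact two-sided permutation test, p = 0.1, the smallest that 3 against 3 arrays allow). This pair of genes was chosen after the values were seen. The second DCK probe stayed between 7.40 and 7.47 on all 9 arrays, within the floor.

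Coculture and monoculture, both without glutamine, were compared to ask what fibroblasts changed in deprived cells. RRM1 was 2.42-fold higher and TK1 1.90-fold higher in coculture, while TYMS was 1.43-fold and RRM2 1.34-fold higher. DCK and DUT differed by less, 1.13-fold and 1.12-fold, and RRM2B was not called. Of the 7 members tested 6 were higher (adjusted p from 2.45e-10 to 0.0399, limma), where 27.8% of all genes tested were called, 12.7% higher and 15.1% lower. The same 6 had groups that did not overlap, against 18.6% of all genes for higher. The median log2 difference of the 7 was 0.42, and that of all genes tested was -0.0095. This comparison uses the same deprived monoculture arrays as the one before it, so opposite directions in both comparisons are not independent.

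RRM1 stood at 10.89, 10.81 and 10.64 on the coculture arrays, against 9.48, 9.42 and 9.62 in deprived monoculture. All coculture arrays lay above all monoculture arrays, with a log2 difference of 1.27 (SE 0.079; adjusted p = 2.45e-10), which ranked 27th in size among all genes tested. Its radical-bearing partner RRM2 stood at 7.97, 7.96 and 7.92 in coculture, against 7.48, 7.55 and 7.55 (log2 difference 0.42, SE 0.062; adjusted p = 2.82e-05). RRM2 lay off the floor on each coculture array. RRM2B stood at 9.78, 9.80 and 9.58 in coculture, against 9.55, 9.65 and 9.96 in deprived monoculture. The ranges overlapped, with a log2 difference of -0.0017 (95% interval -0.19 to 0.19; adjusted p = 0.993).

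TYMS stood at 10.04, 10.26 and 10.16 in coculture, against 9.58, 9.72 and 9.59 in deprived monoculture (log2 difference 0.52, SE 0.068; adjusted p = 7.67e-06). TK1 stood at 8.53, 8.48 and 8.69 in coculture, against 7.53, 7.67 and 7.71 (log2 difference 0.93, SE 0.071; adjusted p = 4.74e-09). The transcripts for both routes to thymidylate were thus higher in coculture with no overlap between groups. DCK stood at 8.28, 8.41 and 8.41 in coculture, against 8.16, 8.14 and 8.25 (log2 difference 0.18, SE 0.061; adjusted p = 0.030). The brighter DUT probe stood at 8.67, 8.63 and 8.62 in coculture, against 8.49, 8.48 and 8.46 (log2 difference 0.17, SE 0.059; adjusted p = 0.0399). The calls of DCK and DUT are fragile. That of DUT was lost when any of the 6 arrays compared was left out (adjusted p from 0.059 to 0.120) and with the replicate number as a block (adjusted p = 0.0514), and that of DCK without deprived monoculture array 1 (adjusted p = 0.0749) or 2 (0.105), or without coculture array 2 (0.111) or 3 (0.112).

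**Figure D2:**
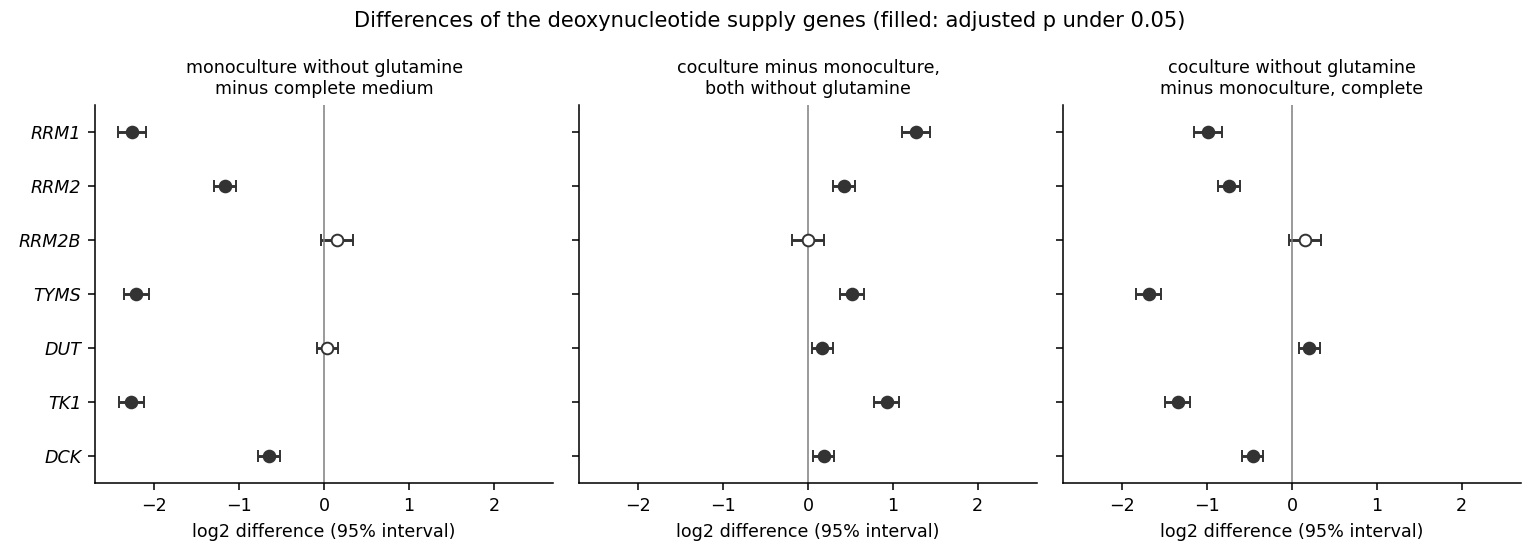
Log2 difference of each member with its 95% interval in the 3 comparisons; filled points have an adjusted p under 0.05. RRM1, RRM2, TYMS, TK1 and DCK lie left of 0 without glutamine, right of 0 in coculture against deprived monoculture, and left of 0 in coculture against complete medium; both comparisons with deprived monoculture share its arrays.

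Coculture without glutamine was then compared with complete medium, a comparison in which both medium and culture differ. TYMS remained furthest below its fed level, 3.23-fold lower, followed by TK1 at 2.54-fold, RRM1 at 1.99-fold, RRM2 at 1.68-fold and DCK at 1.38-fold. Of the 7 members tested 5 were lower and 1 was higher (adjusted p from 8.02e-14 to 0.00768, limma), where 43% of all genes tested were called, 20.7% lower and 22.3% higher. The 1 higher was the brighter DUT probe, with a log2 difference of 0.20 (SE 0.059; adjusted p = 0.00768), and its other probe went the opposite way. RRM2B had a log2 difference of 0.15 (95% interval -0.04 to 0.34; adjusted p = 0.193). By size TYMS ranked 48th, TK1 97th and RRM1 205th among all genes tested.

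RRM1, TK1 and TYMS, whose falls without glutamine were of like size, stood at different places in coculture. On the log2 scale, with deprived monoculture as 0% and complete medium as 100%, the coculture arrays of RRM1 stood at 61.1%, 57.7% and 49.98%. Those of TYMS stood at 18.3%, 28.6% and 23.8%, below each RRM1 value. TK1 lay between them, at 40.9% ± 4.67 (SD, n = 3). RRM2 stood at 36.2% ± 2.47 and DCK at 28.1% ± 11.6, with coculture array 1 of DCK at 14.7%. The floor at or near the deprived arrays of RRM2, TK1 and the dimmer DUT probe affects their percentages. RRM2B and the brighter DUT probe, whose monocultures were not called apart, were given no place.

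The distance between RRM1 and TYMS within an array was read as well, since both genes lay far above the floor. It changed by -0.05 on the log2 scale between deprived monoculture and complete medium, where the groups overlapped (exact two-sided permutation test, p = 0.7). Between coculture and deprived monoculture it changed by 0.75, with no overlap (exact p = 0.1, the smallest possible here). For TK1 against TYMS the changes were -0.06 (exact p = 0.5) and 0.41 (exact p = 0.1). For RRM1 against RRM2 the change was -1.10 between deprived monoculture and complete medium (exact p = 0.1). Between coculture and deprived monoculture it was 0.85 (exact p = 0.1). Between coculture and complete medium it was -0.25, and the groups overlapped (exact p = 0.3). The deprived monoculture arrays of RRM2 and TK1 lay at or near the floor, which affects the changes of their pairs against deprived monoculture. All pairs in this paragraph were chosen after the values were seen, and with 3 arrays a group no such test can reach 0.05.

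**Figure D3:**
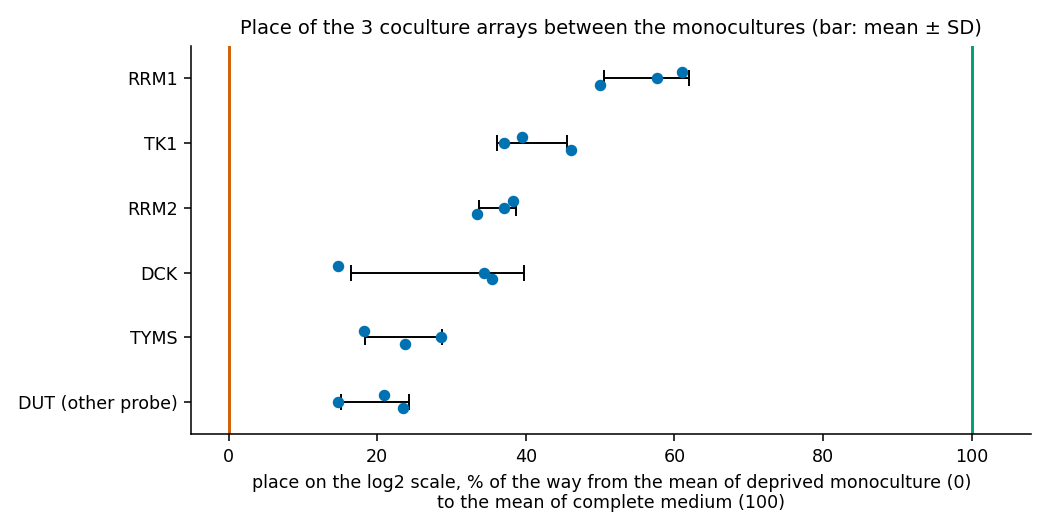
Place of each of the 3 coculture arrays (points; bar, mean ± SD) between the mean of deprived monoculture, set to 0%, and the mean of complete medium, set to 100%, on the log2 scale. Of the 5 members and the other DUT probe drawn, RRM1 has the highest mean, 56.2%, and TYMS, at 23.5%, and the other DUT probe, at 19.7%, the lowest, with array 1 of DCK at 14.7%; the 0% end of RRM2, TK1 and the DUT probe lies at or near the floor.

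DUT had 2 probes, annotated to different RefSeq transcripts, and their results differed. The dimmer probe stood at 7.74, 7.66 and 7.77 in coculture, 7.44, 7.49 and 7.47 in deprived monoculture, and 8.77, 8.76 and 8.72 in complete medium. It is dimmer by its mean over all 9 arrays, which chose the probe. On the complete medium arrays alone it was the higher one, by 0.31 on the log2 scale on average, so a choice on those arrays would have counted DUT as lower without glutamine. It fell to the floor without glutamine, with a log2 difference of -1.28 (SE 0.051; 2.43-fold lower; adjusted p = 2.26e-14, limma over all named probes above the filter, of which 52.4% were called in either direction). In coculture it was higher than in deprived monoculture by 0.25 (SE 0.051; adjusted p = 0.00089), where 25.3% of probes were called, and stood at 19.7% ± 4.52 (SD, n = 3) of the way to complete medium, a share that depends on the floor at its 0% end. Against complete medium it was 2.04-fold lower in coculture (adjusted p = 2.01e-12), where 40.7% of probes were called. The brighter probe, above, was not called without glutamine and was higher in coculture than in complete medium. DUT makes nuclear and mitochondrial enzyme forms from different first exons, and which transcripts each probe detects was not tested. The distance between both probes within an array changed by 1.32 on the log2 scale between deprived monoculture and complete medium, with no overlap (exact two-sided permutation test, p = 0.1, the smallest possible). Of 2658 genes with 2 or more probes above the filter, 1.17% had probes at least this far apart in that comparison, and the median gap was 0.14.

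RRM2B also had 2 probes. The dimmer one stood at 8.999, 8.84 and 8.88 in coculture, 9.05, 8.96 and 9.15 in deprived monoculture, and 8.72, 8.80 and 8.75 in complete medium. Its deprived arrays lay above all fed arrays, and here the log2 difference of 0.30 was called (SE 0.065; adjusted p = 0.00067, limma over all probes). In coculture its difference from deprived monoculture was -0.15 (adjusted p = 0.112). The call of RRM2B without glutamine thus depends on the probe, and on the brighter probe it also appeared when deprived monoculture array 1 was left out (log2 difference 0.24; adjusted p = 0.0377).

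The balance between the transcripts of the alternative small subunits was read within each array. The distance of RRM2B above RRM2 within an array was 2.20 ± 0.19 in deprived monoculture against 0.88 ± 0.20 in complete medium (SD, n = 3), of which only the change can be read, since the probes differ. The change was 1.32 on the log2 scale, with no overlap (exact two-sided permutation test, p = 0.1, the smallest possible) and all deprived arrays above all fed ones. It is made up of the log2 differences of 0.15 for RRM2B and -1.17 for RRM2, and the floor under RRM2 limits it. In coculture the distance was 1.77 ± 0.10, which was 0.42 below deprived monoculture (exact p = 0.1) and 0.89 above complete medium (exact p = 0.1). With the dimmer RRM2B probe these changes were 1.46, -0.57 and 0.89.

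**Figure D4:**
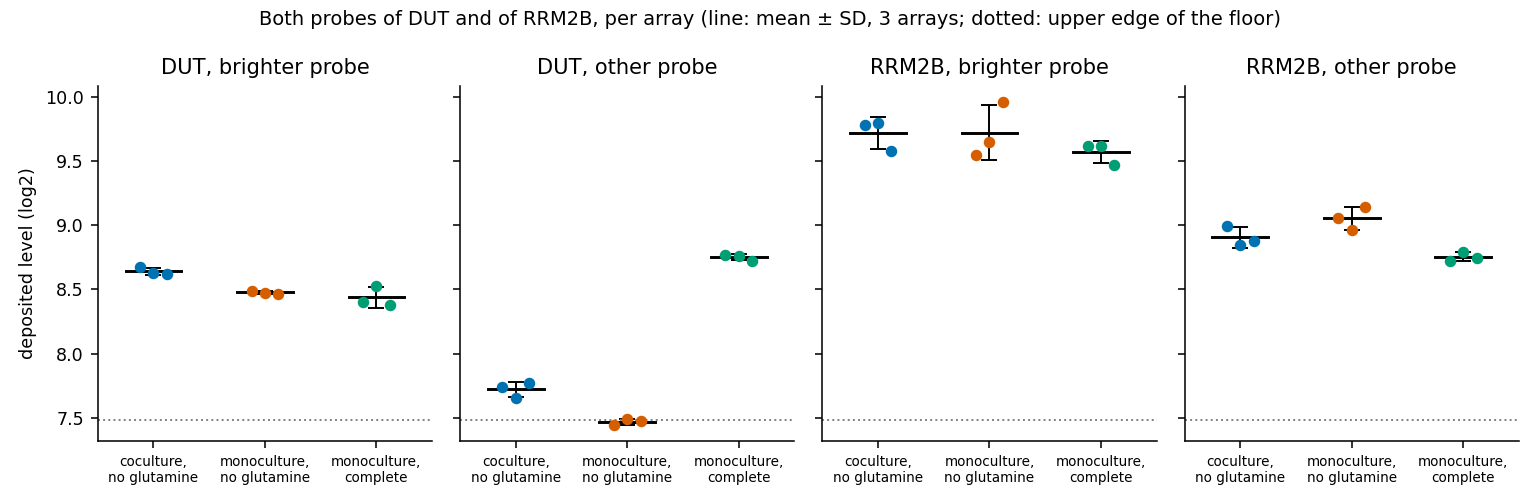
Levels of both probes of DUT and of RRM2B on every array (deposited log2 scale; points are arrays, bars mean ± SD of 3 arrays, dotted line the upper edge of the floor). The dimmer DUT probe lies at the floor in deprived monoculture, against 8.72 to 8.77 in complete medium, while the brighter DUT probe and both RRM2B probes lie above it in every group.

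The genes around the supply enzymes, in lists that do not include the members, had calls in both directions. Their counts are to be read beside the 24.3% of all genes tested called lower and 30% called higher without glutamine, and the 12.7% called higher and 15.1% called lower in coculture. Of 8 tested genes that clean the nucleotide pool or remove uracil from DNA, 4 fell without glutamine. NUDT1, which hydrolyses oxidised purine nucleotides, fell 3.55-fold, UNG, the uracil-DNA glycosylase, 3.31-fold and DCTPP1, which degrades dCTP and its modified forms, 1.42-fold. In coculture 3 were higher than in deprived monoculture: NUDT1 (1.70-fold), UNG (1.57-fold) and the glycosylase MUTYH (1.29-fold). The median log2 difference of the list was -0.21 and 0.13 in these comparisons, where all genes had 0.02 and -0.0095.

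Of 10 tested nucleotide kinases 6 fell and 2 rose without glutamine, and in coculture 4 were higher and 2 lower. This is 60% lower and 20% higher without glutamine. NME4, the mitochondrial nucleoside diphosphate kinase, fell 2.06-fold and was 1.68-fold higher in coculture. AK3, the adenylate kinase of the mitochondrial matrix, fell 1.85-fold and was 1.62-fold higher in coculture, and AK4 had log2 differences of -0.46 and 0.33. NME1, the main cytosolic nucleoside diphosphate kinase, fell by 0.41 on the log2 scale and was not called in coculture (log2 difference -0.02; adjusted p = 0.795). The medians of the list were -0.24 and 0.16.

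Other salvage enzymes had calls in both directions, 6 of 13 lower and 3 higher without glutamine, and 5 higher and 3 lower in coculture. The shares without glutamine, 46.2% lower and 23.1% higher, lie on both sides of those of all genes. UPP1, the uridine phosphorylase, rose 3.24-fold and was 1.58-fold lower in coculture. HPRT1, which salvages hypoxanthine and guanine, fell 2.26-fold and was 1.54-fold higher in coculture, and the adenosine kinase ADK fell 2.25-fold. CDA, the cytidine deaminase, was 1.34-fold higher in coculture. The medians of the list were 0.0035 and 0.10.

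Folate enzymes that serve thymidylate synthesis also had both, with 3 of 8 lower and 3 higher without glutamine. Each is 37.5%, not far from the shares of all genes. GGH, the gamma-glutamyl hydrolase of folates, fell 3.50-fold and was 2.13-fold higher in coculture, and SHMT1, the cytosolic serine hydroxymethyltransferase, fell 2.42-fold and was 1.35-fold higher in coculture. These were the 2 called in coculture. MTHFD2, a mitochondrial folate dehydrogenase, rose 1.87-fold without glutamine. The medians were 0.0023 and 0.07. Of 5 tested nucleotidases, which remove phosphate from nucleotides, 3 rose and 1 fell without glutamine, and 2 were higher and 1 lower in coculture. With 5 genes these shares are coarse. NT5C2 rose 1.68-fold and was 1.29-fold lower in coculture, NT5C had a log2 difference of 0.28, NT5C3A had -0.40 and 0.34, and NT5E, the ectoenzyme CD73, was 1.46-fold higher in coculture. The medians were 0.14 and 0.02.

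De novo pyrimidine genes, of which 3 of 5 were tested, changed by small amounts. CTPS1, which makes CTP with nitrogen from glutamine, fell 1.24-fold and CAD, which opens the pathway, 1.17-fold, and in coculture their log2 differences of 0.08 (adjusted p = 0.485) and 0.03 (adjusted p = 0.723) were not called. The medians were -0.23 and 0.03. Among nucleoside and nucleotide carriers 3 of 8 were tested, and the mitochondrial carrier SLC25A36 fell 1.21-fold without glutamine, with a difference of 0.10 in coculture (adjusted p = 0.250). The medians were -0.0051 and -0.0070.

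Of 13 tested genes that regulate the supply enzymes 7 were lower and 1, the repressor E2F7, higher without glutamine, and 8 were higher and 1, again E2F7, lower in coculture, with medians of -0.46 and 0.25. CDK1 fell 13.6-fold, CCNA2, the cyclin A of S and G2 phase, 8.14-fold and CDK2 3.26-fold. In coculture CDK1 was 3.97-fold, CCNA2 2.33-fold and CDK2 1.72-fold higher. Of the other E2F genes tested, E2F2 fell by 0.48 on the log2 scale without glutamine and was higher by 0.18 in coculture. E2F1 (0.14 and 0.17) and E2F3 (0.10 and 0.11) were not called in either comparison. Markers of the cell cycle shifted beside the members. All 15 of 15 tested S-phase genes and 14 of 14 tested G2 and mitosis genes were lower without glutamine, with medians of -1.71 and -2.69. GINS2, a part of the replicative helicase, fell 4.69-fold, the flap endonuclease FEN1 4.12-fold and TOP2A, the topoisomerase that untangles chromosomes, 12.4-fold. In coculture 12 S-phase genes and 13 mitosis genes were higher and 1 S-phase gene, PCNA, was lower, with medians of 0.80 and 0.88. The share of cells in each phase was not measured, and its part in the members' differences was not tested. In bulk RNA, fewer cells in S phase and less RNA per cell cannot be told apart. Of 11 tested genes on a chosen list of other p53 targets, which is not complete, 9 were higher and 1, DDB2, lower without glutamine. In coculture 10 of these 11 were lower, and the medians of the list were 0.66 and -0.42. Targets outside the list were not counted. XPC rose 2.66-fold and was 1.58-fold lower in coculture, TP53INP1 rose 3.01-fold and was 1.82-fold lower, and GADD45A rose 2.68-fold and was 1.97-fold lower. Sizes differed among these targets: without glutamine MDM2 rose by 0.20 on the log2 scale, and SESN1 (0.09) was not called. MDM2 lay near the floor, with means of 7.76 in deprived monoculture and 7.56 in complete medium, so its fold may be too small. CDKN1A, also listed, did not pass the filter on dim probes and was not tested.

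**Figure D5:**
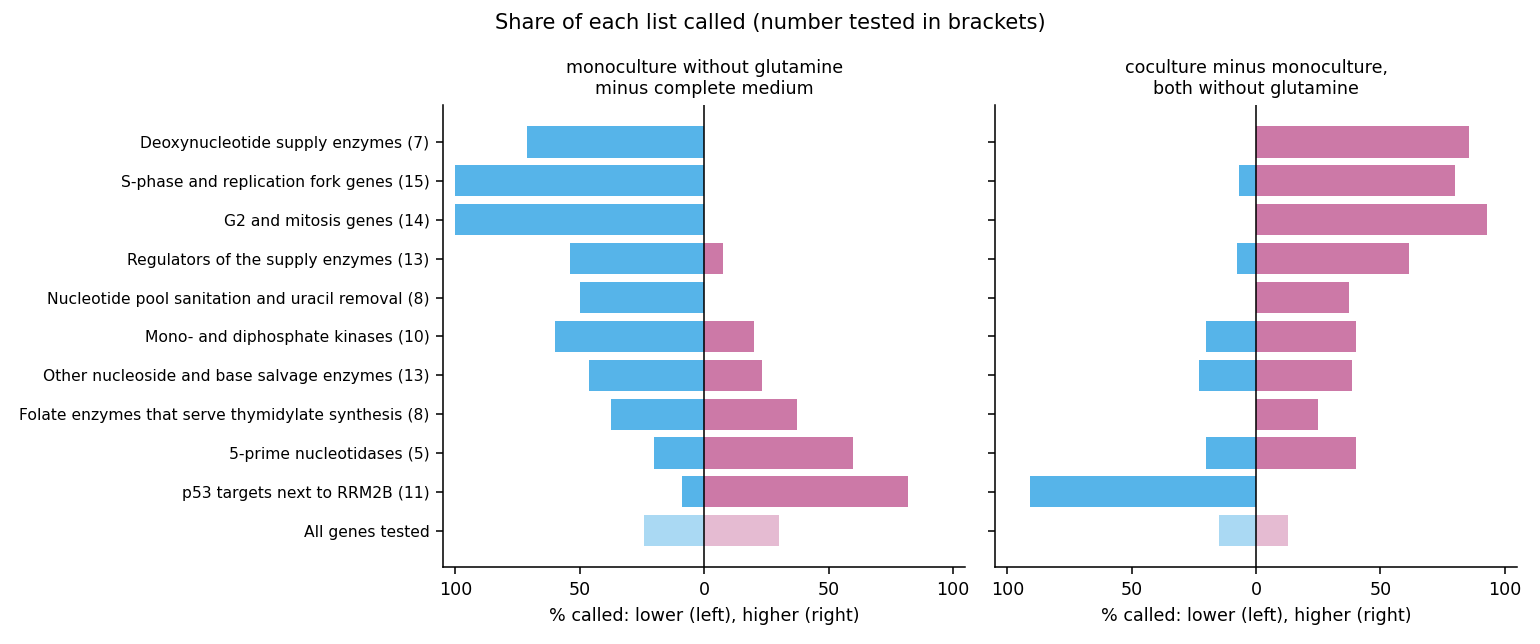
Share of the tested members of the pathway, cell cycle and p53 lists with 5 or more tested genes called lower (left) or higher (right) at an adjusted p under 0.05, for glutamine deprivation (left panel) and coculture (right panel), with all genes tested in the lowest row. Of the supply enzymes 5 of 7 are lower without glutamine and 6 of 7 higher in coculture, beside 24.3% and 12.7% of all genes.

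By the pair of log2 differences, for deprivation and for coculture, over the 10862 genes and 9 arrays, the genes nearest to RRM1 outside the set were MELK (-2.32 and 1.26), MCM4 (-2.20 and 1.30) and CKS1B (-2.32 and 1.31), at distances from 0.058 to 0.072 log2 units. Nearest to RRM2 were CCNG1 (-1.19 and 0.42), HAUS1 (-1.14 and 0.43) and SYTL2 (-1.15 and 0.40). Nearest to RRM2B were PARN, ZNF576 and NUDT9, each with a deprivation difference of 0.15 and a coculture difference between -0.0050 and -0.00078. Likeness here means only a short distance between pairs of differences.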

How the data were processed

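Total RNA of HeyA8 cells was hybridised to Illumina bead arrays, 9 in all. The authors deposited log2-like values made with lumi, per the submitters' processing notes. The sources used here state neither its version, background correction and normalization nor whether the scale is plain log2 or variance-stabilised. Array medians ranged from 7.4706 to 7.4731, as after normalization to a common distribution. The table held 34476 probes. The platform annotation gave 1 gene symbol to 26366 of them, several to 3 and no symbol to 8107, and 26333 matched the RefSeq gene table by gene identifier. The probe with the highest mean stood for its gene, which was kept where this mean exceeded the median probe mean, 7.46.

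Differences were tested two-sided with lmFit and eBayes (trend) in limma 3.58.1 (R 4.3.3), with 3 group means over 9 arrays, and adjusted by Benjamini-Hochberg over all genes; an adjusted p under 0.05 was a call. The fit had 6 residual degrees of freedom and a prior worth 13.3. The procedure was tested on simulated data. The members, gene lists and naming rule (all members; per list up to 3 called genes with the smallest p in the deprivation and in the coculture comparison; the 3 nearest genes) were chosen with earlier results of these data known. Alternatives varied the filter, probe choice, variance prior, arrays fitted, normalization, a block for the replicate number and each array left out. With 3 arrays a group, their number sets the precision.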

Additional observations from a re-analysis of the deposited data

How the results depend on the processing

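Counts of called genes stayed within 1.5 times of those reported under each alternative run: 5459 to 5922 for deprivation, 2463 to 3094 for coculture and 4145 to 4850 for coculture against complete medium. With single arrays left out they ranged from 5459 to 5867, from 2463 to 3009 and from 4145 to 4801, and called members from 5 to 6, from 4 to 6 and at 6; under the other alternatives called members ranged from 5 to 7, from 5 to 6 and from 5 to 6. Deviations of same-numbered arrays correlated between -0.26 and 0.21, and of others between -0.24 and 0.35. These ranges overlap and cannot tell whether replicate numbers pair arrays. The fit with a replicate block called 5802, 2901 and 4563 genes and ended only the coculture call of DUT among the members. Of 387 member differences under alternatives, 361 kept direction and side of the threshold, 13 lost and 3 gained the call, and 10 turned sign. DUT turned to -0.62 (deprivation) and -0.41 (coculture against complete medium) with the mean of its probes, and to -1.28 and -1.03 with its dimmer probe. DCK by its second probe, at the floor, gave 0.0289 (deprivation), -0.0143 (coculture) and 0.0146 (coculture against complete medium). RRM2B in coculture, near 0, gave 0.0053 after another quantile normalization, 0.12 without deprived monoculture array 3 and 0.07 without coculture array 3, with a range of -0.087 to 0.12 over single arrays left out. RRM2B without glutamine gained its call with the mean of its probes (0.22). DCK in coculture lost it with the mean of its probes (0.08), and DUT in coculture without a filter on dim probes (adjusted p = 0.0592). The cause was not tested. The signs and calls of RRM1, RRM2, TYMS and TK1 held under every alternative run. The log2 distance of RRM2B above RRM2 within an array changed by 1.21 to 1.46 for deprivation and by -0.57 to -0.32 for coculture. For coculture against complete medium it changed by 0.80 to 0.997. With single arrays left out the changes were 1.21 to 1.42, -0.48 to -0.32 and 0.80 to 0.997 in the same order. The floor limits what the array can show of the falls of RRM2, TK1 and the dimmer DUT probe.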

Other observations

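The mitochondrial deoxynucleoside kinases TK2 and DGUOK were not among the genes called lower without glutamine. They and TYMP were singled out after their values were seen. TK2, the mitochondrial thymidine kinase, lay near the floor at 7.68 ± 0.05 in coculture, 7.58 ± 0.04 in deprived monoculture and 7.58 ± 0.08 in complete medium (SD, n = 3), with a deprivation difference of 0.0035 (adjusted p = 0.959, limma). DGUOK, the mitochondrial deoxyguanosine kinase, stood at 10.66 ± 0.02 in coculture, 10.91 ± 0.07 in deprived monoculture and 10.61 ± 0.11 in complete medium, and rose by 0.30 without glutamine (adjusted p = 0.00072). In coculture DGUOK was lower than in deprived monoculture (log2 difference -0.25; adjusted p = 0.0077).

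TYMP, the phosphorylase that breaks thymidine down, stood at 9.65 ± 0.08 in coculture, 9.67 ± 0.12 in deprived monoculture and 8.71 ± 0.05 in complete medium (SD, n = 3). It rose 1.95-fold without glutamine (adjusted p = 2.89e-10, limma). In coculture its log2 difference from deprived monoculture was -0.02 (adjusted p = 0.853), and TYMP was 1.92-fold higher there than in complete medium (adjusted p = 9.71e-10), while TK1, which uses the same substrate, was higher in coculture than in deprived monoculture.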
